A study of Homo sapiens with 14 samples.

Results

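The genes described here are 37 genes of DNA replication, chosen by symbol from a fixed list and found once each among the 57445 gene entries of the RNA-seq count tables. They cover the MCM2 to MCM7 helicase (6 genes), licensing and firing factors (8), polymerases and primase (7), the sliding clamp, its loader and strand joining (7), histone deposition (2), deoxynucleotide supply (4) and regulators of the entry into S phase (3). The list was drawn up by function, with no measured value in its rule, but earlier results of these data were known when it was chosen.

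RNA was sequenced from H9 (WA-09), a human embryonic stem cell line, and from cultures differentiated from it toward midbrain dopamine neurons. Undifferentiated cells, called hPSC, formed 1 group, and 4 groups were taken at day 11 after 0.7, 3, 5 or 7.5 µM CHIR99021 from day 4. CHIR99021 inhibits the kinase GSK3 and so activates WNT signalling. All 4 day 11 arms shared SHH C25II, LDN, SB431542 and 0.7 µM CHIR99021 up to day 3, the removal of the first 3 agents at day 7, and a medium with BDNF, GDNF, TGFβ3, ascorbic acid, dibutyryl cAMP and 3 µM CHIR99021 from day 10. Cultures of the 7.5 µM protocol at day 16 and day 30, kept after day 11 with DAPT, made 2 further groups, and the series text gives day 20 where the labels give day 16. Each of the 7 groups held 2 libraries. All come from 1 cell line, and the labels do not say whether the 2 were separate differentiations, so every p-value here speaks for the scatter of these libraries alone.

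DNA replication starts from origins that are licensed in G1, when CDC6 and CDT1 load the MCM2 to MCM7 ring onto DNA. In S phase CDC45 and the GINS complex join the ring to form the active helicase, polymerases copy both strands behind it, and the PCNA clamp, placed by RFC, holds the polymerases on DNA. Cyclin E with CDK2 and the E2F transcription factors drive the passage from G1 into S phase, and many replication genes are known E2F targets. Replication genes are therefore commonly read as a sign of cycling cells. Early neural progenitors divide, and neurons do not. In bulk RNA, fewer cycling cells and less RNA per cycling cell cannot be told apart.

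Counts assigned to genes came to 20524827 to 44758969 per library in the hPSC and day 11 tables and 5406488 to 6336374 at day 16 and day 30. Levels are given as CPM, a gene's share of those counts scaled to a sum of 1000000. The smallest count behind a member's value in the hPSC and day 11 libraries was 51 reads, for CCNE2 at 3 µM, and the largest was 19966, for MCM7 at 7.5 µM. All 37 genes passed the filter on low counts there. The share of uniquely mapped reads that matched no counted gene feature was 10.7% to 13.8% in the 4 day 11 replicate 1 libraries and 17.0% to 21.6% in the 4 replicate 2 libraries. Whether these reads lay in introns or between genes was not examined. Same-numbered day 11 libraries deviated together from their group means (correlation across genes 0.64 to 0.86 over the 6 pairs of groups), and the sample descriptions give all replicate 1 libraries one code and all replicate 2 libraries another. Day 11 doses were therefore compared with the replicate number in the fit, and the counts from the fit without it are given as well.

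In the median over the 37 genes, levels at 0.7, 3 and 5 µM lay below hPSC in both libraries of each group, and those at 7.5 µM lay near or above it. The mean CPM was highest at 7.5 µM for 24 of the 37 genes, in hPSC for 12 and at 3 µM for 1, CDT1. It was lowest at 3 µM for 30 genes, at 5 µM for POLA1, POLA2 and POLE, at 0.7 µM for CDC6 and TYMS, in hPSC for POLD1 and at 7.5 µM for CDT1. The same counts over all genes were not made. From 0.7 to 3 µM the median log2 CPM ratio of all genes tested was -0.26 in replicate 1 and -0.02 in replicate 2. That of the 37 genes was -0.42 and -0.20. In the scaled fit with the replicate number their median was -0.07, with 25 negative and 12 positive. The median log2 ratio of the 37 genes to their hPSC means was -0.59 and -1.48 in the 0.7 µM libraries (replicate 1, then replicate 2), -0.75 and -1.70 at 3 µM and -0.56 and -1.23 at 5 µM. At 7.5 µM it was 0.53 and -0.05. These are CPM ratios without the scaling of the fit, and the same medians over all genes are not given. The scaling factors were 1.12 and 1.10 in hPSC, against 0.76 and 0.83 in replicate 1 at 3 and 5 µM. Shifts shared by most genes are thus part of these ratios. With scaling and the replicate number, the 37 genes had medians of -0.59, -0.84, -0.70 and 0.21 against hPSC at the rising doses. Those of all genes were -0.08, -0.07, -0.05 and 0.04.

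**Figure D1:**
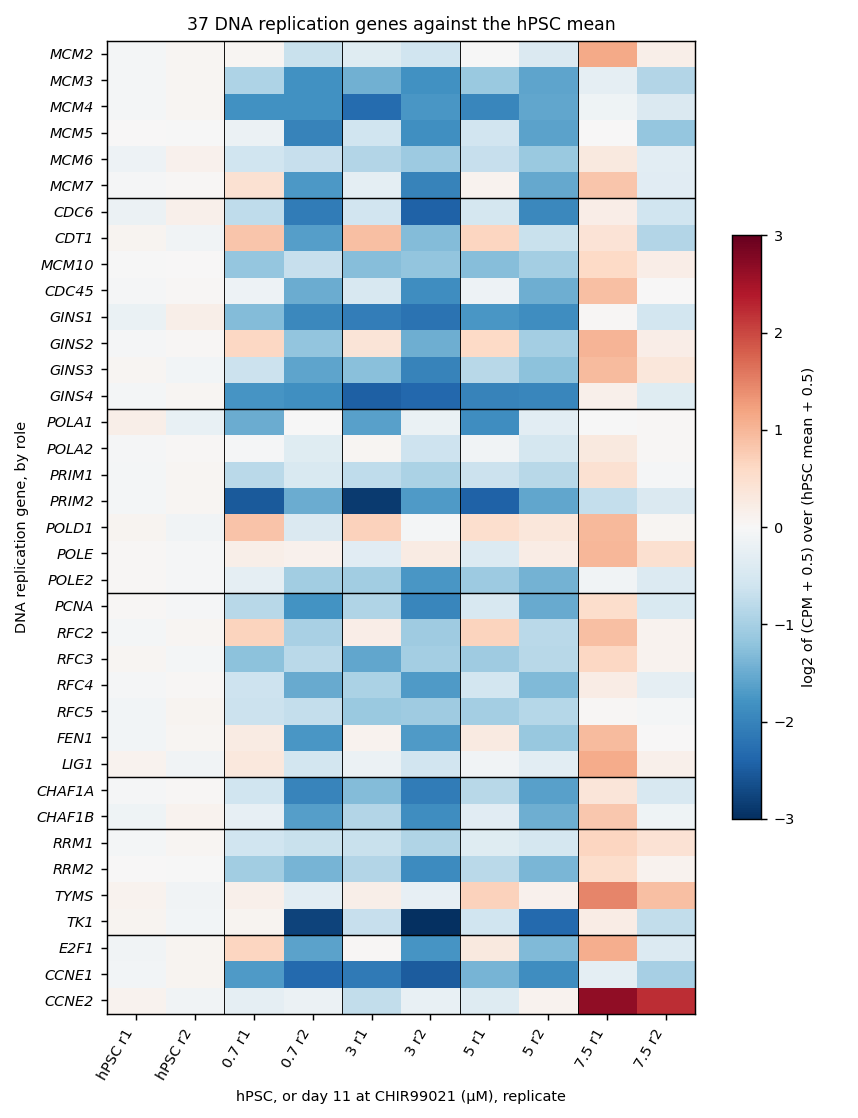
Each row is 1 of the 37 DNA replication genes, grouped by role with black lines between roles, and each column is 1 library (hPSC, then day 11 at 0.7, 3, 5, then 7.5 µM CHIR99021, replicates r1 and r2). Colour is the log2 of CPM plus 0.5 over the hPSC mean plus 0.5. Columns at 0.7 to 5 µM are mostly blue, more so in replicate 2, and the 7.5 µM columns are near white or red, with CCNE2 the darkest red.

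Set per kilobase of exon (mean CPM divided by the length of the gene's merged exons), PCNA was the highest member in all 5 groups, at 152 CPM per kb in hPSC, 64.6 at 0.7 µM and 164 at 7.5 µM. MCM3 was next in hPSC at 129 CPM per kb, and TYMS next at 3, 5 and 7.5 µM, where it reached 120. CCNE2 was the lowest of the 37 genes in hPSC and at 0.7, 3 and 5 µM, at 0.55 to 0.80 CPM per kb. At 7.5 µM it stood at 4.91 CPM per kb, above GINS3 at 4.59 and PRIM2 at 4.54. The 6 subunits of the MCM ring, which is built with 1 copy of each, ranged in hPSC from 17.5 CPM per kb for MCM5 to 129 for MCM3. Part of this gap comes from the merged exon length, 7.34 kb for MCM5 and 3.65 kb for MCM3. It joins the exons of all annotated transcripts. Before division the hPSC means were 128 CPM for MCM5 and 470 CPM for MCM3. Among the 4 GINS subunits the range at 7.5 µM was from 4.59 for GINS3 to 29.7 for GINS2.

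Many replication genes carry E2F sites close to their start, and the promoters of the members are shown for that reason. RefSeq promoters (250 bases before to 50 after the start, GRCh38.p14) were held for 33 of the 37 genes. MCM4, MCM5, GINS4 and CCNE2 were not matched. A search on both strands for TTTCCCGC, TTTGGCGC, TTTCGCGC or TTTGCCGC, 4 spellings of the E2F site, found a match in 18 of the 33 promoters (54.5%), against 3.33% of all 27305 promoters of that length and 3 of 25 promoters of mitosis genes (12%). Matches on opposite strands can overlap, as in MCM2 and MCM6, and were counted separately. In the windows that follow, each 40 bases long and written 5′ to 3′ on the gene's strand, capitals mark the matches.
MCM2, chr3:127598397-127598436, plus strand: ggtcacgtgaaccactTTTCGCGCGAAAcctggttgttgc
MCM3, chr6:52284723-52284762, minus strand: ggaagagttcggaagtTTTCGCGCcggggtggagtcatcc
MCM6, chr2:135876506-135876545, minus strand: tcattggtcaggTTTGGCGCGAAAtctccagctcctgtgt
MCM7, chr7:100101383-100101422, minus strand: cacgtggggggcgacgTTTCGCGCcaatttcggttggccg
CDC6, chr17:40287870-40287909, plus strand: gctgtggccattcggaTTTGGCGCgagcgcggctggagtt
CDT1, chr16:88803738-88803777, plus strand: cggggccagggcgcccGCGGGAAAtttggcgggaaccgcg
GINS1, chr20:25407662-25407701, plus strand: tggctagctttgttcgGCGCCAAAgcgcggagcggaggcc
GINS3, chr16:58392450-58392489, plus strand: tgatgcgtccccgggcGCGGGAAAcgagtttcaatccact
POLE2, chr14:49688196-49688235, minus strand: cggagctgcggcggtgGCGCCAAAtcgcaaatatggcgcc
PCNA, chr20:5126658-5126697, minus strand: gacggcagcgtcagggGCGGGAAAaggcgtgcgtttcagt
RFC3, chr13:33818078-33818117, plus strand: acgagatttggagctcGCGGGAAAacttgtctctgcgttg
TYMS, chr18:657598-657637, plus strand: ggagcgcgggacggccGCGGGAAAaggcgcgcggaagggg
E2F1, chr20:33686382-33686421, minus strand: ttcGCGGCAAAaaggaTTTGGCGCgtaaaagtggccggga

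In these windows MCM2, MCM3 and MCM7 share TTTCGCGC on the gene's strand, within 10 bases of the annotated start. The MCM6 window has TTTGGCGC overlapping TTTCGCGC on the other strand, and the same 12 letters stand a second time in that promoter, so that it holds 4 matches. E2F1, which encodes an E2F factor, has 2 matches that begin at -33 and -20 from its start. CCAAT was found in 51.5% of the members' promoters against 35.7% of all, and the GC box GGGCGG in 72.7% against 44.6%. Of the 25 promoters of mitosis genes, 72% held CCAAT and 72% the GC box, so neither motif was particular to the members. A match is a description of letters and not a bound site. Members with and without an E2F match are set beside the fold changes further on.

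The first question of the series is how the CHIR99021 dose from day 4 changes the cultures at day 11, and 7.5 against 0.7 µM is the widest step. With the replicate number in the fit, 18 of the 37 genes rose and none fell (edgeR quasi-likelihood test, Benjamini-Hochberg adjusted p below 0.05), while 10.5% of the 18709 genes tested were called in either direction and 5.64% were called higher. All 37 fold changes were positive. Their median was 0.99 on the log2 scale, and the median of all genes tested was 0.07. Without the replicate number 0 members and 0 of all genes were called, although 9 members had an unadjusted p below 0.05 and DESeq2 without it called 3. In CPM, 36 of the 37 genes were higher at 7.5 than at 0.7 µM in both same-numbered pairs of libraries, against 41.7% of all genes tested, and for 26 both 7.5 µM libraries lay above both 0.7 µM libraries, against 26.1% of all genes. The single exception to the first count was CDT1. With total-count scaling 1209 of all genes were called higher and 594 lower, against 1056 and 911 here, and 19 members were called, all higher. The number of calls rested on the 0.7 µM libraries: it was 3 without replicate 1 and 4 without replicate 2 of that group, 8 without the replicate 2 library of the 5 µM group, and 13 to 21 without any 1 of the other 5.

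**Figure D2:**
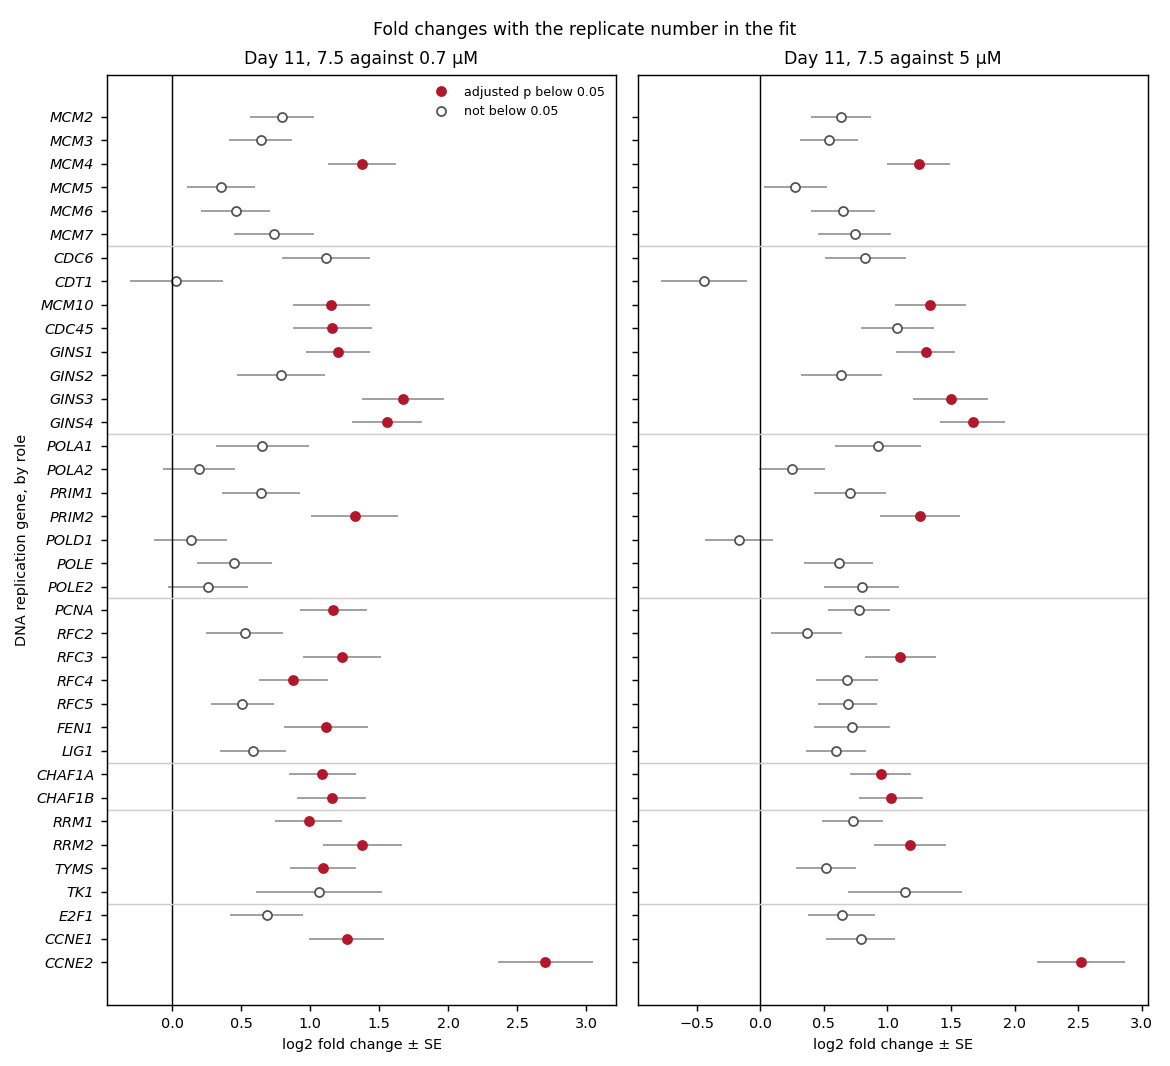
Log2 fold changes of the 37 genes with their standard errors from the edgeR fit with the replicate number, for 7.5 against 0.7 µM on the left and 7.5 against 5 µM on the right. Filled points have an adjusted p below 0.05 (18 on the left, 11 on the right) and grey lines separate the roles. All points on the left lie above 0, and on the right only CDT1 and POLD1 lie below it.

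The G1/S regulators held the member with the largest fold change. CCNE2, a cyclin E that activates CDK2, was at 3.84 and 3.23 CPM in hPSC (replicate 1, then replicate 2, here and below). At day 11 it was at 2.83 and 3.06 CPM with 0.7 µM, 1.91 and 2.96 with 3 µM, 2.60 and 3.83 with 5 µM, and 25 and 18.2 with 7.5 µM. Both 7.5 µM libraries lay far above the other 8, which overlapped. The ratio of 7.5 to 0.7 µM was 8.86 in replicate 1 and 5.94 in replicate 2, and the fitted log2 fold change was 2.71 ± 0.35 (SE, adjusted p = 0.0018 in edgeR's test). CCNE2 was called whichever of the 8 libraries was left out. Its exons overlap those of INTS8 on the opposite strand over 37.1% of their length, and the counting is not stated to use strand. INTS8 was at 65.0 and 101.7 CPM at 0.7 µM and 77.5 and 121.3 at 7.5 µM.

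CCNE1, the other cyclin E, was far higher in hPSC. It measured 32.5 and 36.2 CPM there, 10.2 and 6.41 at 0.7 µM, 7.47 and 5.71 at 3 µM, 12.7 and 9.03 at 5 µM, and 28.1 and 17.1 at 7.5 µM. Its log2 fold change between 7.5 and 0.7 µM was 1.27 ± 0.27 (adjusted p = 0.017, edgeR), and at 7.5 µM both libraries stayed below both hPSC libraries. E2F1, a transcription factor of the G1/S switch, stood at 51.5 and 10.5 CPM at 0.7 µM, 33.8 and 9.37 at 3 µM, 40.8 and 12.8 at 5 µM, and 71.1 and 24.6 at 7.5 µM, with 30.8 and 35.1 in hPSC. Its 2 replicates differed by more than its doses did, and its fold change of 0.68 ± 0.26 was not called (adjusted p = 0.12, edgeR).

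Among the licensing and firing factors 5 of 8 rose, with a median log2 fold change of 1.16. GINS3, a subunit of the GINS complex of the active helicase, was at 15.2 and 13.7 CPM in hPSC, 9.01 and 4.51 at 0.7 µM, 5.82 and 3.20 at 3 µM, 7.94 and 5.87 at 5 µM, and 28.5 and 18.4 at 7.5 µM. Both 7.5 µM libraries were above all others, hPSC included, and the log2 fold change was 1.67 ± 0.30. GINS4, its partner subunit, gave 60.8 and 65.9 CPM in hPSC, then 18.2 and 17.4, 11.3 and 12, 15.4 and 15.8, and 70.5 and 49.0 CPM at the 4 rising doses. Its replicates differed little at 0.7, 3 and 5 µM, its log2 fold change was 1.55 ± 0.25, and it too was called whichever library was left out. MCM10, CDC45 and GINS1, which act in helicase assembly and firing, rose by 1.15 to 1.20. The CDC45 call was lost for most of the single libraries left out, and the MCM10 call was kept in 4 of the 8 fits without 1 library.

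The 2 factors that load the MCM ring did not pass the test. CDC6, an ATPase of the loading step, was at 80.0 and 100 CPM in hPSC, 52.8 and 20.6 at 0.7 µM, 60.2 and 16.4 at 3 µM, 62.6 and 23.2 at 5 µM, and 103 and 59.4 at 7.5 µM. It was higher at 7.5 µM in both pairs, with a log2 fold change of 1.11 ± 0.32 (adjusted p = 0.052, edgeR). CDT1, the other loader, gave 32.5 and 28.5 CPM in hPSC and then 55.1 and 9.32, 57.1 and 12, 47.7 and 19.0, and 40.7 and 16.5 CPM at the 4 doses. Its replicate 1 value was highest at 3 µM and lowest at 7.5 µM, replicate 2 was lowest at 0.7 µM, and all 4 replicate 1 values lay above all 4 replicate 2 values. The ratio of 7.5 to 0.7 µM was 0.74 in one pair and 1.77 in the other. The fitted log2 fold change was 0.03 ± 0.34, and -0.34 ± 1.16 without the replicate number. GINS2 was at 59.3 and 62.3 CPM in hPSC, 93.7 and 26.5 at 0.7 µM, 79.7 and 21.8 at 3 µM, 91.8 and 29.9 at 5 µM, and 124 and 70.1 at 7.5 µM, with a log2 fold change of 0.79 ± 0.32 that was not called.

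**Figure D3:**
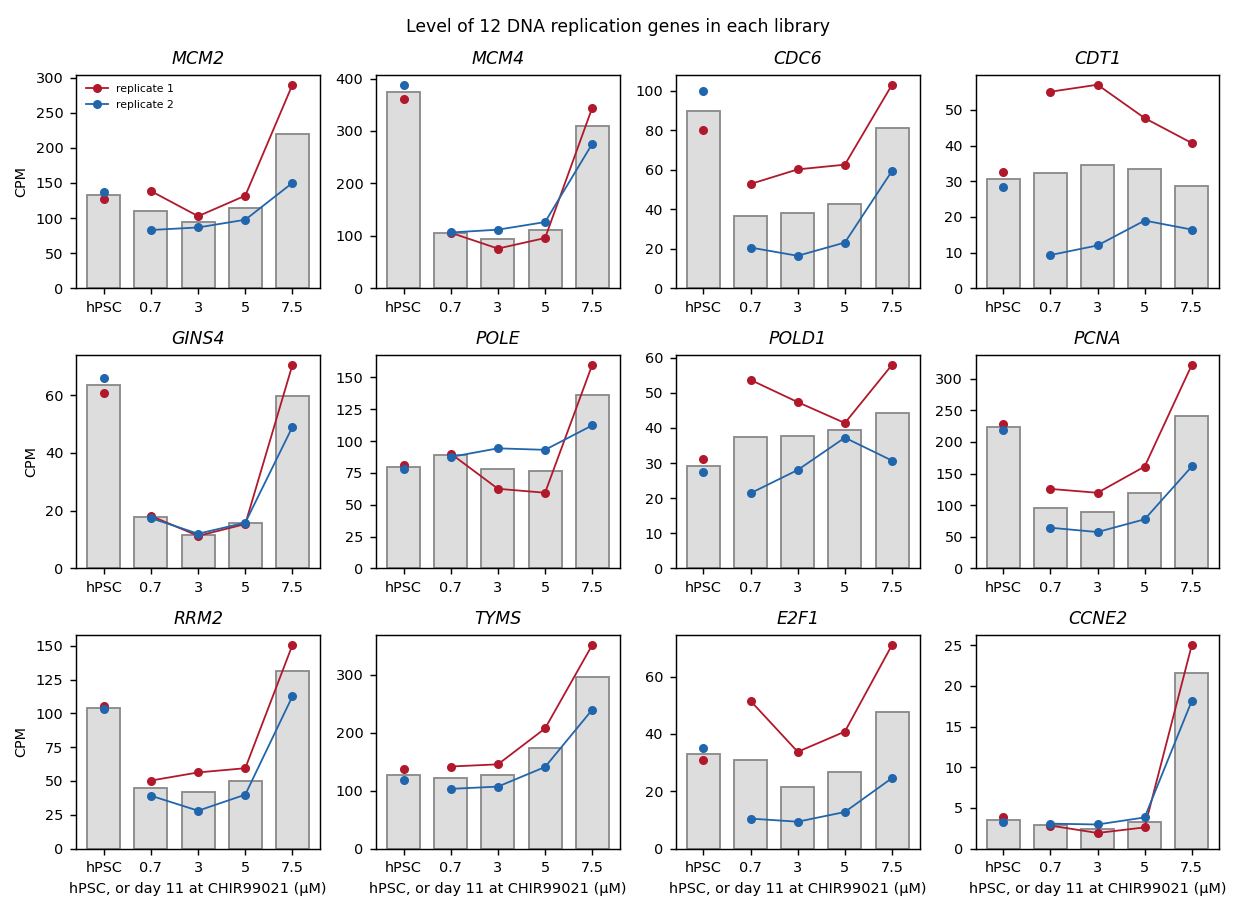
CPM of 12 DNA replication genes in hPSC and at day 11 after 0.7, 3, 5 or 7.5 µM CHIR99021. Points are single libraries (red replicate 1, blue replicate 2), lines join the day 11 libraries of 1 replicate number, and bars are the means of 2. In GINS4, RRM2, TYMS and CCNE2 both 7.5 µM points lie above all day 11 points at lower doses, and in CDT1, CDC6 and E2F1 the red line lies above the blue one throughout.

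Of the 6 subunits of the MCM helicase, only MCM4 was called. MCM4 was at 361 and 388 CPM in hPSC, 106 in both libraries at 0.7 µM, 75.7 and 112 at 3 µM, 95.9 and 126 at 5 µM, and 344 and 275 at 7.5 µM. The 6 libraries at the 3 lower doses stayed at or under 126 CPM, and both 7.5 µM libraries were above them. The log2 fold change was 1.38 ± 0.25 (adjusted p = 0.0086, edgeR), and the call was lost without either of the 0.7 µM libraries. MCM2 read 127 and 137 CPM in hPSC, 138 and 83.0 at 0.7 µM, 103 and 86.6 at 3 µM, 132 and 97.6 at 5 µM, and 290 and 150 at 7.5 µM. It missed the threshold with a log2 fold change of 0.79 ± 0.23 (adjusted p = 0.057, edgeR). MCM5 had the smallest fold change of the 6, 0.35 ± 0.25. It was at 129 and 127 CPM in hPSC, 112 and 31.5 at 0.7 µM, 83.8 and 35.1 at 3 µM, 85.9 and 41.8 at 5 µM, and 128 and 57.3 at 7.5 µM, so that the replicates were further apart than the doses. The subunits of 1 ring thus had fold changes from 0.35 to 1.38 on the log2 scale. Whether they differ from one another was not tested.

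The polymerases and primase had the smallest median among the roles, 0.45, and 1 of 7 was called. That gene was PRIM2, the large primase subunit, which helps to make the RNA primers. It was at 30.1 and 32.9 CPM in hPSC, 5.12 and 10.9 at 0.7 µM, 3.86 and 9.30 at 3 µM, 5.49 and 10.4 at 5 µM, and 19.1 and 23.3 at 7.5 µM, with a log2 fold change of 1.32 ± 0.31. The PRIM2 call was kept in 4 of the 8 fits without 1 library. POLD1, the catalytic subunit of the lagging-strand polymerase delta, showed no such step: 31.2 and 27.4 CPM in hPSC, 53.7 and 21.4 at 0.7 µM, 47.4 and 28.0 at 3 µM, 41.4 and 37.2 at 5 µM, and 58.0 and 30.7 at 7.5 µM. Its log2 fold change was 0.13 ± 0.27. POLE2, a subunit of polymerase epsilon, was at 22.6 and 21.2 CPM in hPSC, 18.0 and 10.3 at 0.7 µM, 10.3 and 6.13 at 3 µM, 10.0 and 7.92 at 5 µM, and 20.4 and 16.3 at 7.5 µM. Its fold change of 0.26 ± 0.29 against 0.7 µM was not called. POLA1, POLA2, PRIM1 and POLE had fold changes from 0.19 to 0.65 and were not called. POLA1, the catalytic subunit of polymerase alpha, had a ratio of 2.79 in the replicate 1 pair and of 1.04 in the replicate 2 pair.

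Of the clamp, clamp loader and strand joining genes, 4 of 7 rose (PCNA, RFC3, RFC4 and FEN1). PCNA was at 228 and 218 CPM in hPSC, 126 and 64.3 at 0.7 µM, 120 and 57.5 at 3 µM, 161 and 77.6 at 5 µM, and 322 and 161 at 7.5 µM. Replicate 1 was above replicate 2 at each dose, and the ratio of 7.5 to 0.7 µM was 2.56 and 2.51 in the pairs. The log2 fold change was 1.17 ± 0.24 (adjusted p = 0.015, edgeR). RFC3, a subunit of the loader, gave 63.7 and 59.5 CPM in hPSC, then 26.2 and 34.9, 20.8 and 30.3, 29.2 and 34.5, and 95.3 and 66.2 CPM at the 4 doses, a log2 fold change of 1.23 ± 0.28. RFC5, another loader subunit, had the smallest fold change of this role, 0.51 ± 0.23. Its 10 values ran from 27.6 to 63.6 CPM, and it was at 38.2 and 36.6 CPM at 0.7 µM and 61.5 and 58.2 at 7.5 µM. RFC4 and FEN1, the flap nuclease of Okazaki fragments, were each called with only 1 of the 8 libraries left out and lost the call with any of the other 7.

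Both subunits of the CAF-1 histone chaperone that are on the list rose. CHAF1A was at 83.0 and 88.3 CPM in hPSC, 56.3 and 21.3 at 0.7 µM, 34.7 and 19.5 at 3 µM, 48.2 and 27.3 at 5 µM, and 111 and 61.7 at 7.5 µM. CHAF1B was at 34.1 and 40.2 CPM in hPSC, 31.0 and 11.5 at 0.7 µM, 19.9 and 9.90 at 3 µM, 29 and 13.2 at 5 µM, and 65.8 and 33.8 at 7.5 µM. Among the day 11 libraries of each replicate number both genes were highest at 7.5 µM and lowest at 3 µM, and their log2 fold changes were 1.09 ± 0.24 and 1.15 ± 0.25.

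Among the nucleotide supply genes 3 of 4 rose. RRM2, the regulated subunit of ribonucleotide reductase, was at 105 and 103 CPM in hPSC, 50.3 and 39.1 at 0.7 µM, 56.3 and 28.0 at 3 µM, 59.5 and 39.9 at 5 µM, and 151 and 113 at 7.5 µM. Both 7.5 µM libraries were above the other 8, and the log2 fold change was 1.38 ± 0.29 (adjusted p = 0.015, edgeR). RRM1, its partner, was at 182 and 195 CPM in hPSC, 125 and 119 at 0.7 µM, 118 and 101 at 3 µM, 148 and 132 at 5 µM, and 295 and 255 at 7.5 µM, with a log2 fold change of 0.99 ± 0.24. The RRM1 call was lost for most of the single libraries left out. TYMS, which makes thymidylate, was at 137 and 119 CPM in hPSC, 142 and 103 at 0.7 µM, 145 and 107 at 3 µM, 207 and 141 at 5 µM, and 351 and 239 at 7.5 µM. Both 7.5 µM libraries were above the other 8, and its log2 fold change between 7.5 and 0.7 µM was 1.09 ± 0.24. TYMS exons overlap those of ENOSF1 on the opposite strand over 39.1% of their length, and ENOSF1 was at 57.4 and 54.7 CPM at 0.7 µM and 61.9 and 68.2 at 7.5 µM. TK1, the thymidine salvage kinase, had ratios of 1.10 and 4.51 in the pairs and was not called. Reads of PCNA, RRM2, TYMS, RFC3, RFC5 and FEN1 can also fall in pseudogenes named after them, and their values are uncertain to that extent.

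Of the 18 members with an E2F match in their promoter 5 were called higher, and of the 15 without one 10 were. The median log2 fold changes were 0.71 and 1.09. The 4 spellings do not cover all forms of the site. TTTGGCGGG, on one strand or the other, stands in the promoters of CDC45, MCM10 and CHAF1A. These were counted as without a match and were called higher. Of the 4 genes with no promoter held, MCM4, GINS4 and CCNE2 were called and MCM5 was not. The difference between the classes was not tested. The windows of CDC6, CDT1, MCM2, MCM3, MCM6, MCM7, POLE2 and E2F1 belong to genes that were not called, and those of GINS1, GINS3, PCNA, RFC3 and TYMS to genes that were.

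**Figure D4:**
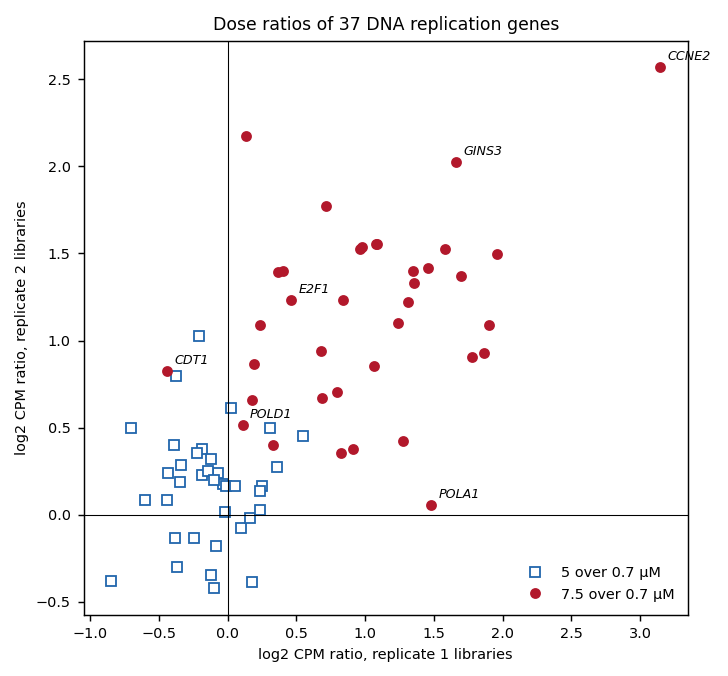
Log2 CPM ratios to 0.7 µM of the 37 genes, with the replicate 1 libraries on the x axis and the replicate 2 libraries on the y axis (no pseudocount). Red circles are 7.5 over 0.7 µM and open squares 5 over 0.7 µM. The circles lie above 0 on both axes but for CDT1, and the squares lie around 0, with 8 of 37 positive on both axes, against 23.4% of all genes tested.

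Between 5 and 7.5 µM, 11 of the 37 genes rose and none fell with the replicate number in the fit, where 6.53% of all genes were called and 3.22% were called higher. The 11 were CCNE2, GINS4, GINS3, MCM10, GINS1, PRIM2, MCM4, RRM2, RFC3, CHAF1B and CHAF1A, and the 3 largest log2 fold changes were 2.52 ± 0.34 for CCNE2, 1.67 ± 0.26 for GINS4 and 1.5 ± 0.30 for GINS3. CDT1 at -0.44 ± 0.34, POLD1 at -0.17 ± 0.27 and POLA2 at 0.25 ± 0.26 were at the other end and were not called. POLD1 changed sign to 0.07 with total-count scaling. The median over the 37 genes was 0.74, and over all genes 0.06. Both 7.5 µM libraries lay above both 5 µM libraries in CPM for 27 members, against 28.5% of all genes. Without the replicate number 0 members were called (6 with an unadjusted p below 0.05, and 3 called by DESeq2). With it, 0 were called without either 5 µM library, 7 without either 3 µM library and 15 and 19 without the replicate 1 and replicate 2 library of the 7.5 µM group. Over all genes 603 were called higher and 618 lower, and 849 and 277 with total-count scaling. This comparison shares the 7.5 µM libraries with the one against 0.7 µM, so the 2 are not independent.

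No member was called at the lower doses. For 5 against 0.7 µM 0 of 37 were called by edgeR with or without the replicate number (1 and 0 with an unadjusted p below 0.05, and 0 by DESeq2), where 1.13% of all genes were called. The fold changes ran from -0.54 ± 0.29 for POLE2, -0.27 ± 0.33 for POLA1 and -0.19 ± 0.25 for MCM6 to 0.47 ± 0.34 for CDT1, 0.48 ± 0.27 for CCNE1 and 0.58 ± 0.24 for TYMS. For 3 against 0.7 µM 0 were likewise called in both fits (0 with an unadjusted p below 0.05, and 0 by DESeq2), with 0.0214% of all genes called. POLE2 was at -0.57 ± 0.29, TK1 at -0.45 ± 0.45 and GINS4 at -0.43 ± 0.25, while CDT1 was at 0.40 ± 0.34, POLD1 at 0.28 ± 0.27 and TYMS at 0.23 ± 0.24. A straight line over the log2 of the dose called 0 members with or without the replicate number (11 and 3 with an unadjusted p below 0.05), and DESeq2 with it called 1. All 37 slopes were positive with the replicate number, with a median of 0.21 per doubling of the dose, against 0.02 for all genes, and of all genes 1.19% were called with it and 0.134% without it.

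Against undifferentiated cells, 3 members were lower at 0.7 µM without the replicate number, where 11.4% of the 19672 genes tested were called and 6.12% were called lower. They were MCM4 with a log2 fold change of -1.66 ± 0.31, GINS4 with -1.67 ± 0.34 and CCNE1 with -1.88 ± 0.50 (edgeR). A term for the replicate number within the day 11 libraries takes their replicate spread out of the error, and the test then speaks for the average of these 2 series only. With it 17 members were called lower and none higher, where 46.1% of all genes were called and 25% were called lower. The lowest fold changes in that fit were -1.92 ± 0.24 for CCNE1, -1.88 ± 0.28 for PRIM2 and -1.66 ± 0.23 for GINS4. POLD1 at 0.39 ± 0.25, POLE at 0.32 ± 0.25 and TYMS at 0.09 ± 0.21 were at the upper end and not called. TYMS was at -0.08 with total-count scaling and -0.06 without the replicate 2 library at 0.7 µM. The count of 3 went to 0 without either hPSC library or the replicate 1 library at 0.7 µM and to 1 without replicate 2 there, and the count of 17 went to 11 without the replicate 2 hPSC library.

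At 3 and 5 µM the same comparison called 5 and 2 members lower and none higher without the replicate number (of all genes 13.7% and 11.4% were called, and 7.59% and 6.22% were called lower). GINS1, MCM4, CCNE1, PRIM2 and GINS4 were the 5, and MCM4 and GINS4 the 2. With the replicate number 22 and 21 were called lower, where 50.1% and 48% of all genes were called, 26.5% and 25.6% lower and 23.7% and 22.4% higher. Then GINS4 at -2.09 ± 0.23, CCNE1 at -2.04 ± 0.24 and PRIM2 at -2.02 ± 0.28 were lowest at 3 µM, and PRIM2 at -1.82 ± 0.28, GINS4 at -1.78 ± 0.23 and GINS1 at -1.57 ± 0.22 at 5 µM. POLD1 went the other way and was called higher than in hPSC at both doses, by 0.68 ± 0.25 and 0.69 ± 0.25, and TYMS at 5 µM by 0.67 ± 0.22. Those calls were made only with the replicate number, and none of the 3 held with total-count scaling. Without the replicate number, 0 members were called at 3 µM without either hPSC or either 3 µM library and 2 without either 7.5 µM library. At 5 µM the count was 0 without either hPSC or either 5 µM library and 4 without either 0.7 µM library. With the replicate number, 15 were called at 3 µM without the replicate 2 hPSC library and 10 without the replicate 2 library at 3 µM, and at 5 µM 7 to 9 were called without any 1 of the hPSC or 5 µM libraries.

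At 7.5 µM few members differed from hPSC by the test. CCNE2 alone was called without the replicate number, at 2.61 ± 0.39 on the log2 scale (adjusted p = 0.0073, edgeR), where 10.1% of all genes were called and 4.35% were called higher. That call was lost without either hPSC library or without the replicate 1 library at 7.5 µM. With the replicate number 5 were called higher and 1 lower, where 34.8% of all genes were called, 16.6% higher and 18.1% lower. The 5 were CCNE2 at 2.61 ± 0.32, TYMS at 1.18 ± 0.22, POLE at 0.77 ± 0.25, MCM2 at 0.65 ± 0.21 and LIG1 at 0.63 ± 0.22, and the 1 lower gene was CCNE1 at -0.65 ± 0.23. MCM5 at -0.58 ± 0.22 and MCM3 at -0.57 ± 0.21 were not called. CCNE2 and TYMS were called whichever of the 10 libraries was left out. The count of 6 was 2 with total-count scaling or without either hPSC library, 3 without either library of the 3 or 5 µM group, and 12 and 10 without the replicate 1 and replicate 2 library at 7.5 µM. The median over the 37 genes was 0.21 and over all genes 0.04. A gene that was not called is not shown to have returned to its hPSC level, and the intervals stay wide: the standard errors in this fit were 0.21 to 0.41. All 4 comparisons with hPSC share the 2 hPSC libraries.

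The 2 cyclin E genes thus stood apart from each other at 7.5 µM relative to hPSC. CCNE1 was below hPSC in both libraries, at 28.1 and 17.1 against 32.5 and 36.2 CPM, and CCNE2 above it in both, at 25 and 18.2 against 3.84 and 3.23 CPM. Per kilobase of exon CCNE1 was at 13.5 CPM in hPSC and 8.87 at 7.5 µM, and CCNE2 at 0.80 and 4.91. The difference between the 2 fold changes was not tested.

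Replicate 1 and replicate 2 at day 11 differed in most members. With both terms in the fit 26 of the 37 genes were lower in replicate 2 and 2 were higher, while of all genes 55.6% were called, 26.9% lower and 28.7% higher. The largest differences were in TK1 at -2.33 ± 0.34, CDT1 at -2.07 ± 0.25 and E2F1 at -2.04 ± 0.19 on the log2 scale (edgeR, adjusted p = 0.00063, 0.00041 and 0.00026). TK1 was at 34.6 and 4.29 CPM at 0.7 µM, 19.9 and 2.96 at 3 µM, 21.3 and 6.05 at 5 µM, and 38.2 and 19.3 at 7.5 µM, against 34.5 and 30.6 in hPSC. POLA1 and PRIM2 went the other way, at 0.93 ± 0.24 and 0.68 ± 0.22. POLA1 was at 48.4 and 135 CPM at 0.7 µM, 43.9 and 119 at 3 µM, 37.6 and 109 at 5 µM, and 135 and 141 at 7.5 µM. CCNE2 at -0.02 ± 0.24, POLE at -0.04 ± 0.19 and RFC3 at -0.04 ± 0.20 were not called. By role, 2 of 2 histone deposition genes, 5 of 6 MCM subunits, 6 of 8 licensing and firing factors, 5 of 7 clamp and joining genes, 3 of 4 nucleotide supply genes and 2 of 3 G1/S regulators were lower in replicate 2. Of the 7 polymerase and primase genes 3 were lower and 2, the POLA1 and PRIM2 named before, were higher. In CPM, without the scaling of the fit, the replicate 1 value was higher for 30, 28, 28 and 35 members at 0.7, 3, 5, then 7.5 µM. The median ratios were 1.75, 1.61, 1.35 and 1.54. The same counts over all genes were not made. The share of reads outside genes also moved with the replicate number, as given above, and the summed level of 10 neuron markers did too (180 to 454 CPM in replicate 1 and 436 to 669 in replicate 2). Their part in the replicate difference was not tested, and only 2 series exist.

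Genes of mitosis were set beside the replication genes as the nearest other set of cycling genes. From 0.7 to 7.5 µM 21 of 30 rose with the replicate number in the fit and none fell, with a median of 1.22, and BUB1B at 2.08, ASPM at 1.90 and CENPA at 1.78 were largest. MAD2L1 at 0.76, AURKB at 0.75 and CDC20 at 0.51 were smallest and not called. The fit without the replicate number called 0 of the 30 (edgeR), and 16 had an unadjusted p below 0.05. Against hPSC, the fit with the replicate number called all 30 lower at 0.7, 3 and 5 µM, with medians of -1.74, -2.06 and -1.72. At 7.5 µM it called 12 lower, with a median of -0.57. Of all genes 25%, 26.5%, 25.6% and 18.1% were called lower in that fit at the 4 rising doses. Without the replicate number 15, 20, 16 and 0 of the 30 were called lower (3 with an unadjusted p below 0.05 at 7.5 µM, edgeR). With the replicate number in the fit, the replication genes had medians of -0.59, -0.84, -0.70 and 0.21 in those 4 comparisons. Between the replicates, 10 of 30 mitosis genes were lower in replicate 2 and 8 were higher, with a median of -0.05. The summed level of the 30 genes was 1478 and 1882 CPM at 0.7 µM, 4116 and 4533 at 7.5 µM, and 7146 and 6116 in hPSC, and that of the 37 replication genes was 2862 and 1674, 5314 and 3358, and 3736 and 3898 CPM. Both sets were higher at 7.5 than at 0.7 µM in both pairs. At 7.5 µM the summed mitosis level stayed below both hPSC libraries, and the summed replication level was above both in replicate 1 and below both in replicate 2. The difference between the 2 sets was not tested.

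**Figure D5:**
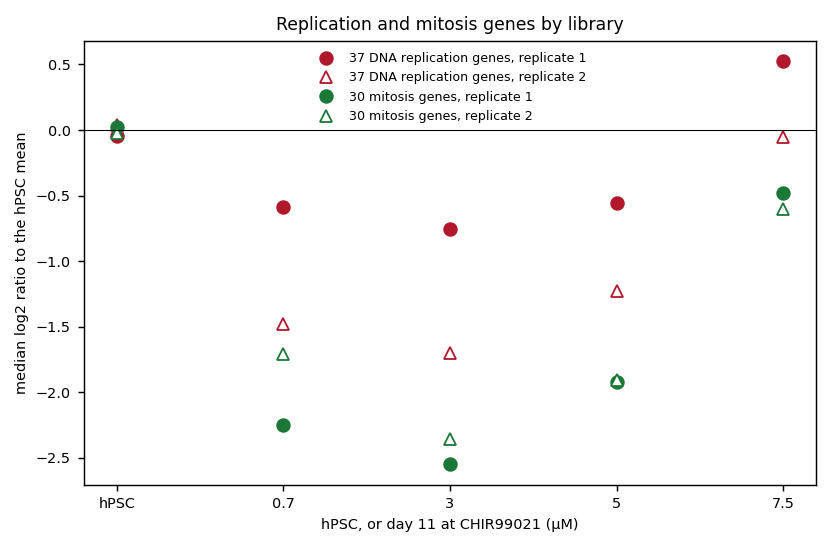
Median log2 ratio to the hPSC mean (CPM plus 0.5) of the 37 DNA replication genes in red and of 30 mitosis genes in green, 1 point per library (filled circles replicate 1, open triangles replicate 2). At 7.5 µM the replication medians are 0.53 and -0.05 and the mitosis medians -0.48 and -0.60, and at 3 µM they are -0.75 and -1.70 against -2.55 and -2.36.

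Other genes of the same pathways were read between 0.7 and 7.5 µM, and their difference from the members was not tested. Of 34 other replication genes 4 rose and none fell with the replicate number in the fit, with a median of 0.56. CLSPN, a checkpoint adaptor at the fork, at 1.75, ASF1B, a histone chaperone, at 1.57 and DNA2, a nuclease, at 1.48 were largest, and ORC4 at -0.56, POLD4 at -0.76 and CHTF18 at -0.80 were smallest and not called. Among 19 other E2F targets and G1/S regulators 5 rose and none fell, with E2F7 at 1.90, TFDP1, a partner of E2F factors, at 1.66 and FBXO5 at 1.47. TFDP2 at -0.40, SLBP at -0.0047 and E2F6 at 0.27 were not called. Of 10 other nucleotide supply genes 9 had a positive fold change, and the median was 0.755. The 1 with a negative fold change, SLC29A1, a nucleoside transporter, fell by 1.19. DCK at 0.97, SAMHD1 at 1.10, NME1 at 0.10 and DCTPP1 at 0.40 were not called. Of 7 cyclin-dependent kinase inhibitors, which hold cells in G1, 6 could be tested. CDKN1C fell by 1.97, CDKN2B rose by 2.50, and CDKN2C at 1.98, CDKN1A at -0.07, CDKN1B at -0.13 and CDKN2D at -0.92 were not called. In the fit without the replicate number edgeR called 0 genes in each of these 4 lists, with 3 of the other replication genes, 5 of the E2F targets and G1/S regulators, 2 of the nucleotide supply genes and 2 of the inhibitors at an unadjusted p below 0.05.

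Cell type markers were read in the same libraries. Of 8 pluripotency markers 7 were lower at 0.7 and at 7.5 µM than in hPSC with the replicate number in the fit: POU5F1 was at 463 and 522 CPM in hPSC and 0.37 to 1.31 at day 11, and NANOG at 15.2 and 27.0 against at most 0.059, while LIN28A was at 1107 to 1781 CPM at day 11. Summed neural progenitor markers were at 670 to 1066 CPM in hPSC, 6505 to 7967 at 0.7 µM and 6722 to 7093 at 7.5 µM. Between 0.7 and 7.5 µM 3 of these 8 fell, with PAX6 at -5.03, FABP7 at -2.25 and MSI1 at -0.94 on the log2 scale, and SOX2 was at 199 and 444 against 210 and 229 CPM. Summed neuron markers were at 285 and 527 CPM at 0.7 µM and 454 and 669 at 7.5 µM, where 1 of 10 rose, INA by 1.5, and 1 fell, DCX by 1.36. TUBB3, DCX and STMN2 were at 15.2 to 32.0, 19.1 to 135 and 0.98 to 7.92 CPM at day 11. Neural crest and mesenchymal markers summed to 16 to 124 CPM at day 11, with SOX10 and TFAP2A at no more than 0.38 CPM and FOXD3 at no more than 0.049. Their sum was 21.6 and 34.0 CPM at 0.7 µM and 46.7 and 79.6 at 7.5 µM, higher in both pairs, against 108.9 and 58.7 in hPSC. Of the 5 of 8 that could be tested between these doses COL1A1, a collagen, rose by 1.94 and PDGFRB by 1.53, LUM fell by 1.71, and TWIST1 and COL3A1 were not called. In the fit without the replicate number edgeR called 0 genes of the progenitor, neuron and crest lists between these doses, with 2 of each at an unadjusted p below 0.05. The part of these markers in the fold changes of the replication genes was not tested.

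The day 16 and day 30 tables differ from the others in genes that most cells use, and their member values are given apart. SOX2 is listed at 0 in all 4 libraries, GAPDH is at 71 to 290 CPM against 2987 to 9966 at day 11, and EEF1A1 at 50.7 to 770 against 2574 to 4068. Of their 50 highest entries, 41 share exon bases with a protein-coding gene on the other strand, against 6 of 50 at day 11. Of the 148 member values 59 rest on fewer than 10 reads, and 24 of 37 members passed the filter. In those, 1 was higher at day 30 than at day 16 (RFC5, log2 fold change 1.69 ± 0.49) and 4 were lower (MCM5 at -5.04, E2F1 at -5.01, MCM3 at -4.32 and PCNA at -2.62), where 11% of all genes were called, 6.82% higher and 4.2% lower. The count of 5 was 11 and 23 without the replicate 1 and replicate 2 library of day 16 and 0 without either library of day 30. CCNE2, with INTS8 opposite, was at 68.2 to 130 CPM in the 4 libraries, RFC5 at 36.4 to 186 and FEN1 at no more than 0.47. RFC5 exons overlap those of WSB2, a protein-coding gene on the opposite strand, over 5.7% of their length. Whether the RFC5 call reflects RFC5 or the gene opposite was not tested. These values are given as deposited, and no level is compared between them and day 11.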

How the data were processed

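Total RNA of 14 libraries in 7 groups of 2 was sequenced. The deposited tables hold raw read counts per gene, made by the authors; per the submitters' processing notes the tools were HTSeq 0.5.3, DESeq2 1.12.4, STAR 2.4.2a and featureCounts 1.4.2, the build was hg19, while roles, library kit and strandedness were not given in the sources used here. Left out of library totals and tests were 5 summary rows per library, present at hPSC and day 11 only. They count reads assigned to no gene, such as those outside counted features or not uniquely mapped, and held 37.4% to 44.3% of a library's total.

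CPM were computed over the gene counts of each library. Tests used edgeR 4.0.16 in R 4.3.3 (limma 3.58.1): TMM scaling, its filter on low counts, a robust quasi-likelihood F-test and Benjamini-Hochberg adjustment over all genes tested, with a threshold of 0.05. Standard errors are the log2 fold change divided by the square root of F. The 8 day 11 libraries shared 1 fit, the 8 and the 2 hPSC libraries another, and the 4 later libraries were fitted on their own. DESeq2 1.42.0, other scalings, no filter, the replicate number as a block and leaving out each library were the alternatives. The scripts were tested on simulated counts.

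Whether replicate numbers pair libraries was checked from deviations from group means: the correlation was 0.64 to 0.86 in the 6 pairs of day 11 groups, and -0.18 to -0.11 between hPSC and the day 11 groups. The day 11 numbers were therefore taken as pairs, also because their descriptions share a code per number. The main design had no block, and both fits are given.

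The members and all gene lists were chosen with earlier results of these data known. Named were, per role, the largest and smallest fold change of 7.5 against 0.7 µM plus a fixed set (MCM2, MCM5, PCNA, RRM2, TYMS, CDC6, CDT1, GINS2, POLE2, E2F1, CCNE1, CCNE2), and in other comparisons the 3 largest, the 3 smallest and those against the majority; in other lists likewise, and in marker lists the first 3. TK1, POLA1 and GINS4, named by the rule in other comparisons, were also given by library. Exon lengths, overlaps and pseudogenes are from GENCODE 29, and promoter sequences from RefSeq (GRCh38.p14), matched by symbol. No coordinates were converted between builds. One gene of the list of other nucleotide supply genes is not reported here.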

Additional observations from a re-analysis of the deposited data

How the results depend on the processing

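With the replicate number as a block, the pairing of day 11 libraries took the members called from 0 to 18 for 7.5 against 0.7 µM and from 0 to 11 for 7.5 against 5 µM, and left 0 for 5 and 3 against 0.7 µM and the slope. DESeq2 without the block called 3 and 3, and DESeq2 with it called 1 in the slope. With the block, leaving out 1 library gave 3 to 21 calls for 7.5 against 0.7 µM and 0 to 19 for 7.5 against 5 µM. Against hPSC at the 4 rising doses, a block within day 11 took 3, 5, 2 and 1 calls to 17, 23, 23 and 6. DESeq2 without it called 5, 8, 6 and 1, total-count scaling 8 at 3 µM and 4 at 5 µM, and no filter 1 at 5 µM. Leaving out 1 library gave 0 to 2, 0 to 5, 0 to 4 and 0 to 1 calls without the block, and 11 to 24, 10 to 27, 7 to 25 and 2 to 12 with it. Total-count scaling with the block gave 2 at 7.5 µM, and crossing the hPSC numbers, chosen after seeing the data, gave 10, 16, 9 and 2. For day 30 against day 16 total-count scaling gave 3, no filter 8, the block 4 and crossed numbers 4, and leaving out 1 library 0 to 23. With the block no residual degrees of freedom were left for that, so it was not run. Of single genes, the fold change of CDT1 between 7.5 and 0.7 µM was -0.0219 with DESeq2 size factors, -0.0198 with DESeq2, -0.34 with no block, and -0.51 to 0.415 without 1 library. Without 1 library POLA1 ran from -0.0852 to 1.16, POLA2 from -0.0766 to 0.385, POLD1 from -0.0962 to 0.385 and POLE2 from -0.0542 to 0.439. POLD1 between 7.5 and 5 µM was 0.0707 with total-count scaling and -0.477 to 0.131 without 1 library, and TYMS at 0.7 µM against hPSC was -0.0807 and -0.0586 to 0.238. Of these only POLA1 at 1.16, without the replicate 2 library at 7.5 µM, was called, and the cause was not tested. Total-count scaling moved the median of all genes from 0.07 to 0.24 for 7.5 against 0.7 µM and from 0.06 to 0.31 for 7.5 against 5 µM. At hPSC and day 11 0 of 370 member values were under 10 reads, and 59 of 148 were at day 16 and day 30.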
